A study of Mus musculus with 16 samples.

Results

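The comparison described here set agonist-treated dendritic cells with a truncated estrogen receptor α against agonist-treated wild-type cells, and was made of 4 of the 16 libraries of the series. They were chosen by their source labels, which give the genotype arm, the treatment and the absence of surgery. The KO agonist group (2 libraries) came from NZM2410 mice with the Esr1(tm1Ksk) allele, whose product the labels call ERα short, a receptor that lacks part of its sequence and keeps residual estrogen responsiveness. The WT agonist group (2 libraries) came from NZM2410 mice with intact Esr1. NZM2410 is an inbred strain prone to lupus, and no mouse of either group had been operated on. Marrow was cultured in 20 ng/ml GM-CSF plus 10 ng/ml IL-4, dendritic cells were harvested on day 7, and both groups received loxoribine and CpG DNA (1 μg/ml), agonists of TLR7 and TLR9, for 24 h. For loxoribine the labels give 200 μmol/ml, and whether that unit is right is unknown. KO vehicle and WT vehicle libraries (2 each, no agonist) were used beside them. The genotype label and the source label agree for the 4 agonist libraries, but the genotype label of the KO vehicle libraries names the null allele, which goes against their source label. The series title speaks of a conditional knockout in CD11c+ cells, and the labels of these libraries name no Cre driver, sex or age. Nothing in the labels tells whether the libraries of a pair stem from different mice or different cultures, so the p-values below measure only the spread between libraries, which may be technical.

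Estrogen receptor α is a nuclear receptor that binds DNA after it takes up estradiol, either at its own response elements or through other factors such as AP-1. Its N-terminal activation function AF-1 is the function that the series' design text names as mutated in ERα short. Cells grown from marrow in GM-CSF and IL-4 are a mixture of dendritic cells and macrophage-like cells, and TLR7 and TLR9 are endosomal sensors of single-stranded RNA and unmethylated CpG DNA that induce cytokines and dendritic cell maturation. In lupus these sensors can respond to self nucleic acids, and the C1q complex is known for its part in clearing dying cells.

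Expression was read as FPKM, fragments scaled by gene length and by the library's mapped total. The 4 libraries held an estimated 40.8 to 43.8 M (mega) fragments, and 10575 to 10623 genes reached 1 FPKM in each. Differences are on the log2(FPKM + 1) scale, KO agonist minus WT agonist, with the standard error of a limma fit to the 8 unoperated libraries. That scale understates the change of low genes. A gene is said to have been called when its limma p-value, adjusted by Benjamini and Hochberg's method over all genes tested, was under 0.05. Xist was between 54.8 and 66.5 FPKM in the 8 libraries, slightly lower in KO agonist libraries (-0.16 ± 0.05, limma adjusted p = 0.0306), and the 4 Y-linked genes looked up did not exceed 0.00493 FPKM. Esr1 itself was low, at 2.01 and 1.77 FPKM in KO, against 0.937 and 0.684 FPKM in WT. The pairs did not overlap, and Esr1 was higher in KO (0.68 ± 0.08, limma adjusted p = 3.4e-05). Reads summed per gene cannot separate a truncated transcript from an intact one.

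Of 10954 genes tested, 6137 (56.0%) were called, 3020 (27.6%) higher and 3117 (28.5%) lower in KO. The counts of called genes in the lists below stand beside these shares. Most of the called differences were small. The median size of a called difference was 0.24 log2 units, and 84.8% of the called genes differed by less than 0.5. Over 2-fold, 160 genes (1.46%) were called, of which 41 (0.374%) were higher and 119 (1.09%) lower in KO. With 0.1 or 5 FPKM in place of 1 before the logarithm, that count was 337 or 75. In limma's treat test, which asks for a difference beyond 1.5-fold, 334 genes (3.05%) passed, 101 (0.922%) higher and 233 (2.13%) lower. The larger changes were thus mostly losses, as the plot of level and difference shows. The 119 genes that were over 2-fold lower made up 2.59 and 2.68% of the summed FPKM in KO libraries, against 6.79 and 6.65% in WT libraries. The 41 higher ones made up 0.681 and 0.661% in KO libraries and 0.266 and 0.27% in WT libraries. Within a pair the median difference between libraries was 0.0443 log2 units in KO and 0.0423 in WT. The variance within the pairs was about 2.97 and 3.26 times the sampling variance of the estimated fragments in KO and WT (359 genes), so no pair looked like a library deposited again.

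**Figure D1:**
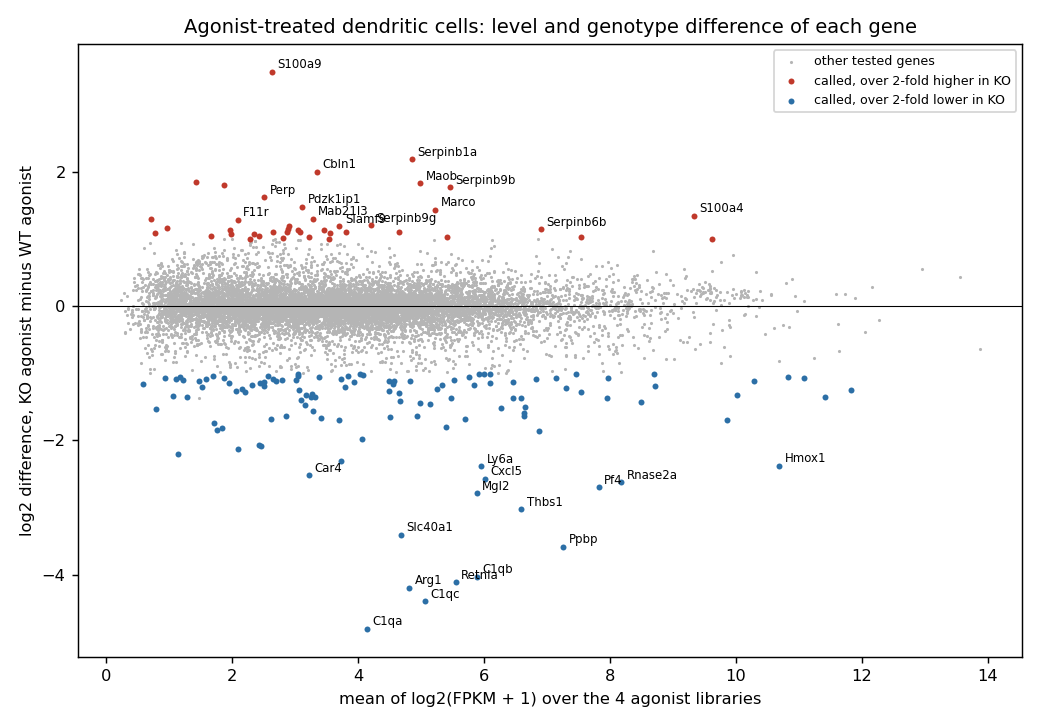
Each point is 1 of 10954 genes, placed by its mean log2(FPKM + 1) over the 4 agonist libraries (horizontal) and by its log2 difference, KO agonist minus WT agonist (vertical). Red points were called and over 2-fold higher in KO, blue points called and over 2-fold lower. The lower genes reach -4.81 in C1qa, and the higher ones reach 3.49 in S100a9.

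Complement genes were among the largest losses. C1qa, C1qb and C1qc encode the chains of C1q, the recognition part of the classical complement pathway, which macrophages and dendritic cells secrete. C1qa was at 2.43 and 2.25 FPKM in KO, against 92.1 and 93 FPKM in WT. C1qb was at 12.5 and 14.8 FPKM in KO, against 243 and 233 FPKM in WT, and C1qc at 6.0 and 6.54 FPKM in KO, against 153 and 151 FPKM in WT. Every KO library was far below every WT library, with differences of -4.81 ± 0.04 for C1qa, -4.03 ± 0.07 for C1qb and -4.4 ± 0.06 for C1qc (limma adjusted p = 1.95e-13, 2.8e-10 and 8.72e-12). The genes lie side by side on chromosome 4 (136880129 to 136898803, mm10). The receptors for the complement fragments C3a and C5a were lower too, C3ar1 at 17 and 19.3 FPKM in KO, against 41.5 and 39.4 FPKM in WT (-1.12 ± 0.05) and C5ar1 at 10.6 and 12.3 FPKM in KO, against 22.1 and 21.1 FPKM in WT (-0.86 ± 0.06). Properdin (Cfp), which stabilises the alternative pathway convertase, differed by -0.49 ± 0.02, while factor B (Cfb), an enzyme of the same convertase, was higher (0.30 ± 0.03). Of the 9 complement genes tested, 7 were called lower and 1 higher, with a median of -0.86 beside -0.0042 over all genes. The level of C1q was low in KO with vehicle as well, at 3.09 and 3.45 FPKM in KO, against 115 and 110.3 FPKM in WT for C1qa.

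No RefSeq promoter was found for C1qa. Promoters of the neighbours C1qb and C1qc are shown because these genes fell together. They run from 250 bases before to 50 after the RefSeq start (GRCm38.p6, 5′ to 3′ on the gene's strand), at chr4:136886151-136886450 and chr4:136892865-136893164, both on the minus strand. Capitals mark TGACC or its reverse complement GGTCA, the arms of the estrogen response element.
C1qb: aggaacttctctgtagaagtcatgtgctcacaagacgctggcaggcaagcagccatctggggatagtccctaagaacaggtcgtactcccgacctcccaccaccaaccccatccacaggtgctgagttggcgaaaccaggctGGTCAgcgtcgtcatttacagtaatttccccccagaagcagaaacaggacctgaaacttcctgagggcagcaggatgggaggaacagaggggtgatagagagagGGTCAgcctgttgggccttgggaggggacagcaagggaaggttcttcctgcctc
C1qc: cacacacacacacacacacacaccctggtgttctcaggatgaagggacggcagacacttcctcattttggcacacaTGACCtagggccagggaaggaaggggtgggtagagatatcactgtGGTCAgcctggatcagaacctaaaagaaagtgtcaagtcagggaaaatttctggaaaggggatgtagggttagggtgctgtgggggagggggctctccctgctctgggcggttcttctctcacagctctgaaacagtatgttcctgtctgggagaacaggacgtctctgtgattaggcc
Each window held 2 such arms, a motif that 40.5% of all 32851 RefSeq promoters of this length hold on either strand. The full element, GGTCA and TGACC with 3 bases between them, was in neither window and in 0.07% of all promoters. A match is a string of letters and was not tested as a binding site.

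Genes of IL-4-driven alternative activation were lower in KO although both groups were grown with IL-4. Arg1, which degrades arginine, was at 4.97 and 6.2 FPKM in KO, against 119 and 119 FPKM in WT (-4.19 ± 0.07). Retnla, a secreted resistin-like protein induced by IL-4, was at 9.99 and 10.5 FPKM in KO, against 194 and 193 FPKM in WT (-4.11 ± 0.03, limma adjusted p = 5.05e-14). The C-type lectin Mgl2 was at 20.6 and 22.2 FPKM in KO, against 156 and 151 FPKM in WT (-2.79 ± 0.04). In each of these the libraries of the groups were apart by several-fold. The mannose receptor Mrc1 (-0.66 ± 0.04), the eotaxin Ccl24 (-0.71 ± 0.02) and fibronectin, Fn1 (-0.65 ± 0.04), were lower by less. Chil3, a chitinase-like protein that is also an IL-4 target, was barely lower, at 1929 and 1996 FPKM in KO, against 2077 and 2026 FPKM in WT (-0.06 ± 0.02), and the receptor gene Il4ra was at 33.9 and 33.8 FPKM in KO, against 34.3 and 35.7 FPKM in WT and did not pass (-0.05 ± 0.03). In all 9 of 12 genes were called lower and 1 higher, the ribonuclease Ear2 (0.68 ± 0.10), and the list median was -0.65. Ear2 has close paralogs, so reads may be shared between them. Other arginine and immune amino acid enzymes moved much less than Arg1: the arginine importer Slc7a2 differed by -0.12 ± 0.02, inducible nitric oxide synthase, Nos2, by -0.33 ± 0.04, and the itaconate-making enzyme Acod1 (listed as Irg1) by -0.28 ± 0.04. Kynu, of tryptophan breakdown, was the exception and was higher (0.79 ± 0.03).

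Antioxidant genes that the transcription factor NRF2 is known to drive were lower without exception in the list of 10. Hmox1, which breaks down heme, was at 720.5 and 717 FPKM in KO, against 3711 and 3793 FPKM in WT (-2.38 ± 0.02, limma adjusted p = 1.09e-13). Prdx1, a peroxidase, was at 1683 and 1736 FPKM in KO, against 4399 and 4327 FPKM in WT (-1.35 ± 0.02). The modifier and catalytic subunits of the enzyme that starts glutathione synthesis, Gclm (-1.58 ± 0.03) and Gclc (-1.29 ± 0.03), fell as well. The other members were Nqo1 (-1.45 ± 0.03), Srxn1 (-1.07 ± 0.02), Txnrd1 (-0.85 ± 0.03), the cystine carrier Slc7a11 (-0.77 ± 0.03), Sqstm1 (-0.61 ± 0.02) and Gsr (-0.41 ± 0.03). The median was -1.18, and the members' FPKM summed to 3749.9 and 3802 in KO, against 10408 and 10397 in WT. Outside the list and picked after their values were seen, Slc40a1, the iron exporter ferroportin, was at 6.82 and 6.92 FPKM in KO, against 82.8 and 81.8 FPKM in WT (-3.4 ± 0.03), and Fth1, ferritin heavy chain, was at 11432 and 12578 FPKM in KO, against 19043 and 18216 FPKM in WT (-0.64 ± 0.04).

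Promoters of NRF2-list genes were searched for the core of the antioxidant response element, TGACNNNGC on either strand, a motif chosen after the values were seen. Of the 7 list genes that the RefSeq table holds, 4 had it in at least 1 promoter, while 14% of all genes did. The list was made of genes known to be driven by NRF2, so a high share says nothing about these libraries. Windows of Gclm (chr3:122245307-122245606), Srxn1 (chr2:152105274-152105573) and Prdx1 (chr4:116685349-116685648), all on the plus strand of GRCm38.p6, are shown with the match in capitals.
Gclm: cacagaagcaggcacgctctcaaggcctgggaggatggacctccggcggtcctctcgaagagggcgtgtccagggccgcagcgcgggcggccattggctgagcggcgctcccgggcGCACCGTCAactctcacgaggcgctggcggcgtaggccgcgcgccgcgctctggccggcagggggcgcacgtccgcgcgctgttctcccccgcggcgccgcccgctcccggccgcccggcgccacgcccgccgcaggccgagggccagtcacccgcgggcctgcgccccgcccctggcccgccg
Srxn1: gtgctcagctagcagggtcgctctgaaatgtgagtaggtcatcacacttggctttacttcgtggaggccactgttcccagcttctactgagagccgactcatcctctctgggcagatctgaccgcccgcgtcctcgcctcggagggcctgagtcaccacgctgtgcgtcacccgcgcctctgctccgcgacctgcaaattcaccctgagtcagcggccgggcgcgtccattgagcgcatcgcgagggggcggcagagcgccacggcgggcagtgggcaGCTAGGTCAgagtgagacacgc
Prdx1: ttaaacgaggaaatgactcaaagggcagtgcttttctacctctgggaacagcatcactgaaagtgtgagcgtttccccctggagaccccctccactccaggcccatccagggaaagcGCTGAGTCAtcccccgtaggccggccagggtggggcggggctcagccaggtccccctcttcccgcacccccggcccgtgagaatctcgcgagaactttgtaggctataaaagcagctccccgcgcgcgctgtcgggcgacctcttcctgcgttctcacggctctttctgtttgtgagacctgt
The match in Prdx1 overlaps a match to the AP-1 motif TGANTCA, which 7.81% of all promoters hold. The full estrogen response element was in none of the windows of the 7 genes. Outside the list, the C1qb window shown above also held the antioxidant core, unmarked there.

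Chemokines that draw monocytes and neutrophils were mostly lower. All 7 monocyte-attracting CC chemokines were lower, with a median of -0.94. Ccl6 was at 634 and 675 FPKM in KO, against 1657 and 1603 FPKM in WT (-1.32 ± 0.03), Ccl7 at 20.1 and 20.4 FPKM in KO, against 59.3 and 55.8 FPKM in WT (-1.46 ± 0.04) and Ccl2 at 205 and 199 FPKM in KO, against 315 and 297 FPKM in WT (-0.59 ± 0.03). Of 7 genes for neutrophil attraction and granulocyte growth, 6 were lower (median -1.07). Among them Ppbp, a platelet-type chemokine, was at 40.6 and 46 FPKM in KO, against 544 and 513 FPKM in WT (-3.58 ± 0.05), Pf4 at 85 and 90.4 FPKM in KO, against 583 and 566 FPKM in WT (-2.7 ± 0.03), Cxcl5 at 24 and 27 FPKM in KO, against 155 and 157 FPKM in WT (-2.57 ± 0.05) and Cxcl3 at 1495 and 1505 FPKM in KO, against 3179 and 3110.2 FPKM in WT (-1.07 ± 0.04). These 4 genes neighbour each other on chromosome 5 (90759360 to 90789600). Ppbp and Pf4 also stand in the erythroid and megakaryocyte marker list. Of its 3 tested members 2 were lower and 1 higher, beside 28.5% lower and 27.6% higher over all genes. The part of such cells was not tested. Of chemokines for T cells, Ccl5 was at 9594 and 9504 FPKM in KO, against 6273 and 6791 FPKM in WT and was higher (0.55 ± 0.04, limma adjusted p = 2.74e-06). After quantile scaling its KO and WT values were equal. That scaling gives genes of the same rank the same value, so it cannot decide whether the levels of such a gene differ. Ccl17 was lower (-0.26 ± 0.03), and Cxcl10 (0.32 ± 0.12, adjusted p = 0.0505), Cxcl1 (-0.47 ± 0.17, adjusted p = 0.0677), Ccl3 (-0.06 ± 0.06) and Ccl4 (0.25 ± 0.11) did not pass. Ccl22 is listed at 0 in both KO agonist libraries and at 11227 and 11988 FPKM in WT agonist libraries. It had 6655 and 6952 FPKM in KO vehicle libraries, so those zeros were taken as missing and it was not tested.

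**Figure D2:**
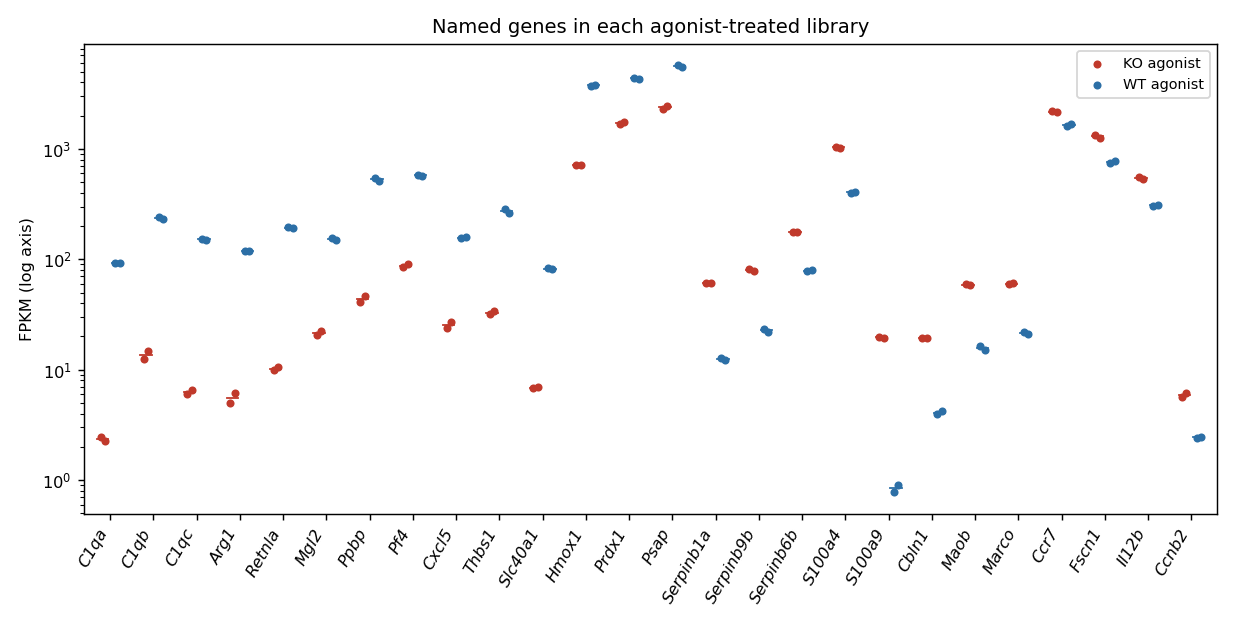
FPKM (log axis) of 26 named genes in each agonist-treated library, KO agonist in red to the left of WT agonist in blue, with a bar at each group's mean. The pairs lie close together and the groups do not overlap in any gene shown, as in 38.1% (KO higher) and 39.7% (KO lower) of all genes tested. From C1qa to Psap the KO points are below the WT points, and from Serpinb1a to Ccnb2 they are above.

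Phagocytic and tissue-remodelling genes were also mostly lower. Of 15 matrix and protease genes 12 were called lower and 2 higher (median -0.91), beside 28.5% lower and 27.6% higher over all genes. The same shares stand beside the counts of uptake receptors and lipid genes below. Of 11 stromal and fibroblast markers 3 passed the minimum level, Acta2 (-0.61 ± 0.06), Pdgfra (-0.36 ± 0.07) and Pecam1 (-0.24 ± 0.07), all lower, and their part in the matrix genes was not tested. Thbs1, the matrix glycoprotein thrombospondin 1, was at 31.6 and 33.9 FPKM in KO, against 286 and 262 FPKM in WT (-3.03 ± 0.04), and the lysosomal protease Ctsl at 512 and 519 FPKM in KO, against 1722 and 1633 FPKM in WT (-1.7 ± 0.03). The collagenases Mmp8 (-1.5 ± 0.06) and Mmp13 (-1.37 ± 0.03), which neighbour each other on chromosome 9, and the gelatinase Mmp9 (-1.63 ± 0.04) were lower, while the protease inhibitor Timp1 was higher (0.78 ± 0.04). Of 15 scavenger and uptake receptors 11 were lower and 1 higher. The fatty acid and oxidised lipid receptor Cd36 was at 213 and 224 FPKM in KO, against 595 and 581 FPKM in WT (-1.42 ± 0.03), and Mertk, a receptor for dying cells, at 3.53 and 3.74 FPKM in KO, against 8.17 and 7.99 FPKM in WT (-0.97 ± 0.06). Marco, a scavenger receptor for bacteria, went the other way, at 59.3 and 61.4 FPKM in KO, against 22.1 and 21.1 FPKM in WT (1.44 ± 0.04). The Fcγ receptors that activate cells, Fcgr4 (-1.12 ± 0.05), Fcgr3 (-0.98 ± 0.03) and Fcgr1 (-0.89 ± 0.08), differed more than the inhibitory Fcgr2b (-0.25 ± 0.02). Psap, a lysosomal lipid-degradation cofactor and one of the most expressed genes, was at 2296 and 2445 FPKM in KO, against 5703 and 5523 FPKM in WT (-1.24 ± 0.03), and of 14 genes for lipid handling 8 were lower, led by Cd5l (-1.36 ± 0.06), Trem2 (-1.17 ± 0.03) and Gpnmb (-1.12 ± 0.02), and 3 higher, led by the cholesterol exporter Abcg1 (0.55 ± 0.03).

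Markers of macrophages and monocytes moved with these groups. Of 14 tested, 10 were lower and 4 higher, with a median of -0.53, beside 28.5% lower and 27.6% higher over all genes. Cd68 (-0.69 ± 0.03), the integrin Itgam (-0.67 ± 0.04), the growth factor receptor Csf1r (-0.59 ± 0.04) and Adgre1, the F4/80 antigen (listed as Emr1, -0.47 ± 0.03), were lower. Ly6c2 (0.26 ± 0.03), Ccr2 (0.80 ± 0.08) and Cx3cr1 (1.85 ± 0.09), which mark monocytes, were higher with Cd14 (0.21 ± 0.02), and Cx3cr1 was at 3.61 and 4.63 FPKM in KO, against 0.404 and 0.429 FPKM in WT. The tissue macrophage markers Cd163 and Vsig4 were at or near 0 in the 4 agonist libraries, at 0.0906 FPKM at most. The FPKM of the list summed to 5274 and 5599 in KO, against 6968 and 6614 in WT. The part of these markers in the results above was not tested, and in bulk RNA fewer cells of a type and less RNA per cell cannot be told apart. Conventional dendritic cell markers had 5 of 11 higher and 2 lower (median 0.09), beside the same shares over all genes. Itgax, which encodes CD11c, was at 97.7 and 104 FPKM in KO, against 105 and 103 FPKM in WT and did not pass (-0.05 ± 0.03), while Flt3 (0.42 ± 0.06) and Zbtb46 (0.34 ± 0.06) were higher, Clec9a and Xcr1 of cross-presenting cells were below 0.5 FPKM, and the list summed to 2746 and 2683 in KO, against 2119.8 and 2227 in WT. Ccr7 made up most of that sum, which without it was 542 and 534 in KO, against 521 and 537 in WT, so that the groups overlapped. Of 10 B and plasma cell markers none reached the level for testing.

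Genes of dendritic cell migration and maturation were higher in KO in part. Fscn1, an actin bundler of mature dendritic cells, was at 1324 and 1264 FPKM in KO, against 741 and 776 FPKM in WT (0.77 ± 0.03, limma adjusted p = 7.11e-09), and Ccr7, the receptor that guides them to lymph nodes, at 2205 and 2149 FPKM in KO, against 1598 and 1690.2 FPKM in WT (0.40 ± 0.03). Il4i1, a secreted amino acid oxidase, was higher by 0.71 ± 0.03. In all 6 of 8 genes of this list were higher and 1 lower (median 0.44). Costimulation split, with 6 of 12 higher and 5 lower, beside 27.6% higher and 28.5% lower over all genes. Cd40 was at 252 and 234 FPKM in KO, against 171 and 175 FPKM in WT (0.49 ± 0.04), and Cd83 (0.37 ± 0.03) and Cd80 (0.24 ± 0.03) were higher. Cd86 (-0.27 ± 0.03) was lower, as were the inhibitory ligands Cd274 (-0.50 ± 0.02) and Pdcd1lg2 (-0.26 ± 0.03) and the T cell costimulator receptor Tnfrsf9, at 104 and 99.7 FPKM in KO, against 237 and 239 FPKM in WT (-1.22 ± 0.02). For MHC class II, 7 of 10 genes were higher and 3 lower (median 0.25), with the transactivator Ciita at 29.1 and 29.3 FPKM in KO, against 19.8 and 20.1 FPKM in WT (0.53 ± 0.03) and the β chain H2-Eb1 at 508 and 500.5 FPKM in KO, against 356 and 354 FPKM in WT (0.51 ± 0.02). For class I the immunoproteasome subunit Psmb9 (0.60 ± 0.03) and the peptide transporter Tap1 (0.43 ± 0.03) were higher, whereas the heavy chains H2-D1 (-0.30 ± 0.02) and H2-K1 (-0.12 ± 0.02) and B2m (-0.20 ± 0.02) were lower. H2 genes are closely related, so reads may be shared between them. B2m values were equal between the groups after quantile scaling, which gives genes of the same rank the same value and so cannot decide there.

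Cytokine genes were split. In the interleukin 12 family 3 of 5 were higher and none lower, in the interleukin 1 family 4 of 9 were higher and 3 lower, and among 12 other cytokines and TNF superfamily genes 4 were higher and 3 lower, beside 27.6% higher and 28.5% lower over all genes. Il12b, the chain shared by interleukins 12 and 23, was at 555 and 532 FPKM in KO, against 306 and 309 FPKM in WT (0.82 ± 0.04, limma adjusted p = 4.02e-08), and Il12a at 9.87 and 9.66 FPKM in KO, against 6.85 and 6.88 FPKM in WT (0.45 ± 0.07). Il1b, the pyrogen interleukin 1β, was at 1111 and 1078 FPKM in KO, against 702 and 682 FPKM in WT (0.66 ± 0.15, limma adjusted p = 0.0174). That call was lost when any 1 of the 4 agonist libraries was left out, with differences between 0.64 and 0.68. The fitted error is shared by the 8 libraries, and the WT vehicle pair was at 31 and 42.7 FPKM. With the 4 agonist libraries alone Il1b differed by 0.66 ± 0.03 (limma adjusted p = 8.77e-07). Its natural antagonist Il1rn was lower, at 283 and 278 FPKM in KO, against 443 and 424 FPKM in WT (-0.63 ± 0.03), and so was Il18bp, which neutralises interleukin 18 (-1.11 ± 0.03). Il6 was at 216 and 194 FPKM in KO, against 192 and 189 FPKM in WT and Tnf at 175 and 153 FPKM in KO, against 167 and 165 FPKM in WT, and neither passed (0.11 ± 0.05 and -0.02 ± 0.21). Csf1, the macrophage growth factor, was lower, at 41.2 and 38.3 FPKM in KO, against 68.7 and 65.8 FPKM in WT (-0.74 ± 0.03). Among receptors, Tlr9 was higher, at 12.8 and 12.6 FPKM in KO, against 8.32 and 8.39 FPKM in WT (0.55 ± 0.04), while Tlr7 was lower, at 12 and 12.9 FPKM in KO, against 16.8 and 16.1 FPKM in WT (-0.37 ± 0.04), so the sensors of the 2 agonists differed in opposite directions. Tlr13 (-0.92 ± 0.05), a sensor of bacterial ribosomal RNA, and Tlr1 (-0.77 ± 0.06) and Tlr4 (-0.56 ± 0.03) of the cell surface were lower and Tlr2 higher (0.35 ± 0.03). The adaptor Myd88 was at 47.7 and 49.8 FPKM in KO, against 44.5 and 47.2 FPKM in WT (0.09 ± 0.04, not called). NF-kB subunits and feedback genes had 13 of 17 higher and 1 lower (median 0.25), by small amounts such as 0.52 ± 0.03 for Relb and 0.21 ± 0.03 for Nfkbia.

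Interferon-stimulated genes leaned towards KO, with 18 of 28 higher and 6 lower and a median of 0.28. Mx1, an antiviral GTPase, was at 29.8 and 26.9 FPKM in KO, against 16.1 and 17.3 FPKM in WT (0.73 ± 0.05), and the ubiquitin-like Isg15 at 156 and 137 FPKM in KO, against 93.1 and 92.7 FPKM in WT (0.65 ± 0.05). The antiviral enzymes Rsad2 (-0.44 ± 0.06) and Cmpk2 (-0.34 ± 0.06), neighbours in the genome, went the other way, and Irf7 was slightly lower (-0.07 ± 0.02). Ifnb1 stayed under the level for testing, at 0.296 and 0.365 FPKM in KO and 0.19 and 0.0708 FPKM in WT. Interferon-induced GTPases of the Gbp and Irg families had 7 of 13 higher, Irgm1 (0.39 ± 0.03) among them, and 2 lower, Gbp7 (-0.28 ± 0.04) among them. Members of these families resemble each other enough to share reads.

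The cell cycle and sterol lists had no member called lower. In the cell cycle list 27 of 30 genes were higher (median 0.62). Ccnb2, a mitotic cyclin, was at 5.71 and 6.1 FPKM in KO, against 2.43 and 2.46 FPKM in WT (1.0 ± 0.05), Birc5 at 14.3 and 15 FPKM in KO, against 7.5 and 6.91 FPKM in WT (0.93 ± 0.04) and Top2a, which untangles DNA, at 12.9 and 14.3 FPKM in KO, against 7.1 and 6.33 FPKM in WT (0.92 ± 0.06). The proliferation marker Mki67 was at 26.4 and 27.4 FPKM in KO, against 27.7 and 26.7 FPKM in WT and did not pass (-0.02 ± 0.03), and neither did Pcna (-0.03 ± 0.03). Of 20 sterol synthesis genes 17 were higher (median 0.32), among them Idi1 at 41.4 and 40.5 FPKM in KO, against 22.7 and 22.8 FPKM in WT (0.82 ± 0.04), Cyp51 (0.56 ± 0.03) and the regulator Srebf2 (0.33 ± 0.03). Glycolysis and hypoxia genes went the opposite way, with 18 of 21 lower and 2 higher (median -0.36). The angiogenic factor Vegfa was at 4.94 and 5.48 FPKM in KO, against 15.2 and 14.5 FPKM in WT (-1.35 ± 0.05), the glucose carrier Slc2a1 differed by -0.61 ± 0.02 and Hif1a, the hypoxia sensor's transcription factor, by -0.57 ± 0.03, while Pfkfb3, an activator of glycolysis, was higher at 93 and 91 FPKM in KO, against 49.1 and 50.9 FPKM in WT (0.87 ± 0.03). Of 25 oxidative phosphorylation genes 8 were lower, close to the 28.5% of all genes, and 3 higher, with a median of -0.04.

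**Figure D3:**
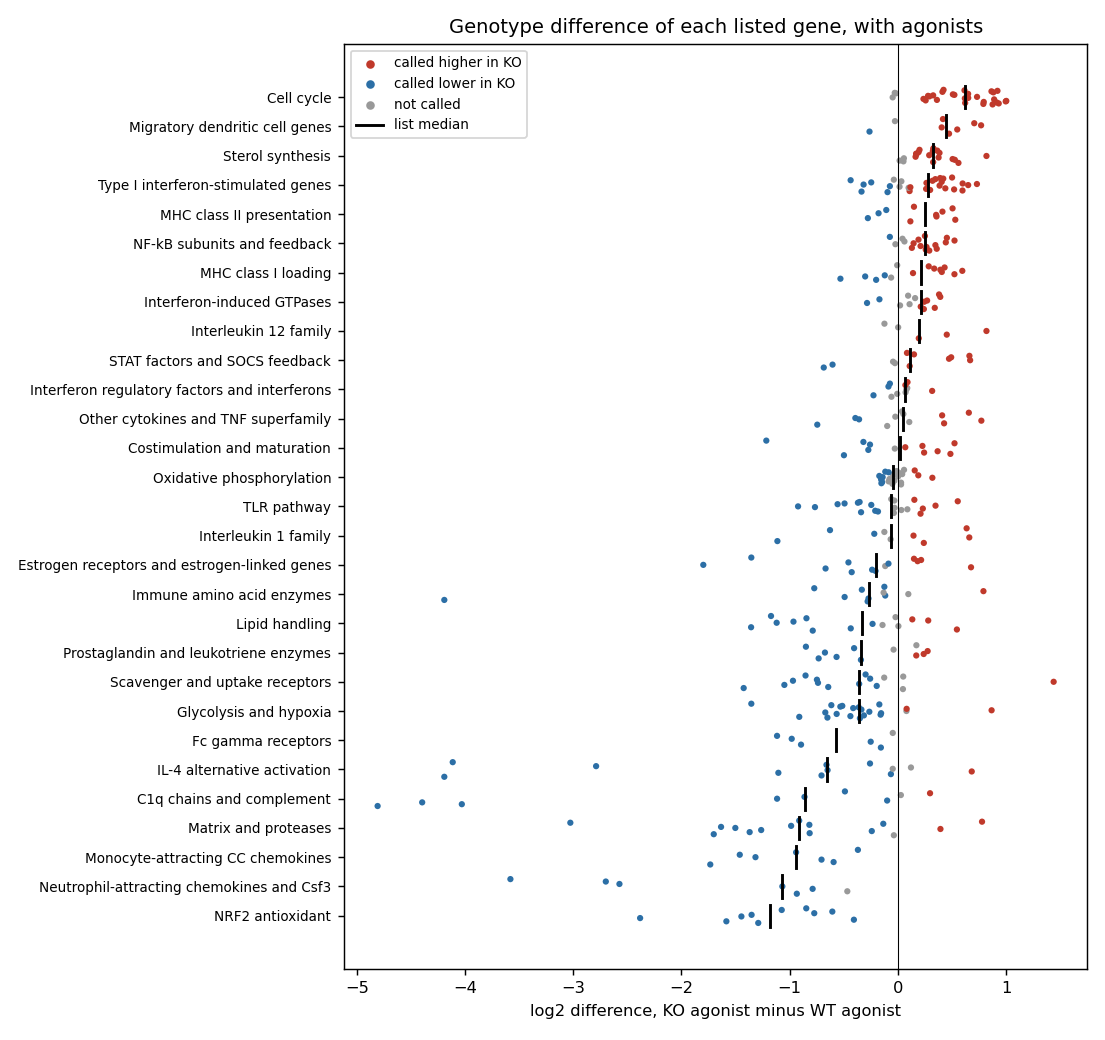
Each point is a tested gene of a list, placed by its log2 difference, KO agonist minus WT agonist, and coloured by whether it was called higher (red), lower (blue) or not called (grey), with the list median as a bar. Medians run from 0.62 for cell cycle genes to -1.18 for NRF2 antioxidant genes.

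Among the genes that were higher, a row of protease inhibitors on chromosome 13 (32842092 to 33496004) stood together. Serpinb1a, which inhibits neutrophil proteases, was at 60.9 and 60.4 FPKM in KO, against 12.8 and 12.2 FPKM in WT (2.19 ± 0.03, limma adjusted p = 8.24e-12). Serpinb9b was at 81.3 and 78.5 FPKM in KO, against 23.3 and 22.1 FPKM in WT (1.77 ± 0.03), Serpinb6b at 177 and 176 FPKM in KO, against 78.5 and 79.6 FPKM in WT (1.15 ± 0.03) and Serpinb9, known as an inhibitor of granzyme B, at 272 and 258 FPKM in KO, against 128 and 129.5 FPKM in WT (1.04 ± 0.03). Serpinb9g was higher as well (1.2 ± 0.03). These genes are paralogs and reads may be shared between them. The promoter of Serpinb9 (chr13:33004291-33004590, plus strand, GRCm38.p6) is shown because it held the interferon-stimulated response element, GAAA repeated after 2 bases, whose match on the opposite strand is in capitals and which 3.44% of all promoters hold.
Serpinb9: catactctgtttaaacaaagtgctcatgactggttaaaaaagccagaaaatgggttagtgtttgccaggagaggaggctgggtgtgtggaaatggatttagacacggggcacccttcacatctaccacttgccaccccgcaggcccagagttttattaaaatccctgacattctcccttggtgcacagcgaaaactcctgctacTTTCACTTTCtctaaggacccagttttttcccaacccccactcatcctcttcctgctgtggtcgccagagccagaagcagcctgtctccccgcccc
The promoters of Serpinb6b, Serpinb9b and Serpinb9g held no match to that motif, which says only that these letters are not in their windows.

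Other genes with large gains have varied roles. S100a4, a calcium-binding protein of motile cells, was at 1047 and 1013 FPKM in KO, against 399 and 407 FPKM in WT (1.35 ± 0.02). S100a9, a subunit of the alarm protein calprotectin, was at 19.9 and 19.5 FPKM in KO, against 0.777 and 0.906 FPKM in WT (3.49 ± 0.57, limma adjusted p = 0.00715). Its partner S100a8 was at 80.4 and 81.6 FPKM in KO, against 74.4 and 77 FPKM in WT and did not pass (0.10 ± 0.11). The fitted error of S100a9 is shared by the 8 libraries, of which 1 WT vehicle library had 5.62 FPKM and the other 1.15. Of 8 neutrophil and granulocyte markers tested 2 were higher, S100a9 and Camp (0.93 ± 0.05), close to the 27.6% of all genes. Another 4 were lower, beside 28.5% of all genes, and the primary granule genes Mpo and Elane stayed under the level for testing. Cbln1, a secreted synapse organiser, was at 19.4 and 19.5 FPKM in KO, against 3.94 and 4.25 FPKM in WT (2.01 ± 0.05), and Maob, a mitochondrial monoamine oxidase, at 59.3 and 58.3 FPKM in KO, against 16.5 and 15.1 FPKM in WT (1.83 ± 0.04). The junction and adhesion genes Perp (1.62 ± 0.08) and F11r (1.28 ± 0.06) and the immune receptor Slamf9 (1.19 ± 0.05) followed.

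The same contrast in vehicle libraries was taken between none of these 4 samples and asks whether the differences depend on the agonists. Its error comes from the same fit to the 8 libraries, so the calls of the 2 contrasts are not independent. The KO vehicle libraries carry the conflicting allele label given above, so the labels leave unclear which allele the vehicle contrast sets against WT. Between the 2 contrasts, treatment and allele cannot be told apart by the labels. C1qa was at 3.09 and 3.45 FPKM in KO vehicle. It was at 2.66 and 2.2 FPKM in ovariectomized ERα-short and at 115 and 117 FPKM in ovariectomized ERα-null vehicle libraries. Those libraries also differ by surgery and an estradiol pellet. Arg1 and Retnla were higher in KO vehicle than in either, and which allele was present was not tested. With vehicle 6751 genes (61.6%) were called, 187 (1.71%) of them over 2-fold. Of the agonist calls, 83.3% were called in the same direction with vehicle (5113 genes, 46.7% of those tested and 75.7% of the vehicle calls) and 72 (0.657%) in the opposite direction. Of the 160 genes over 2-fold with agonists, 159 were called the same way with vehicle and 121 were over 2-fold there. C1qa, Arg1 and Retnla differed by -4.74 ± 0.04, -4.26 ± 0.07 and -4.0 ± 0.03 with vehicle. The difference of the differences, agonist minus vehicle, was called in 873 genes (7.97%), 282 (2.57%) positive and 591 (5.4%) negative, and 6 (0.0548%) of these were over 2-fold. That count fell whichever of the 8 libraries was left out, which leaves 1 library in a group. It also depended on the filter, since it was 527 without a minimum level.

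**Figure D4:**
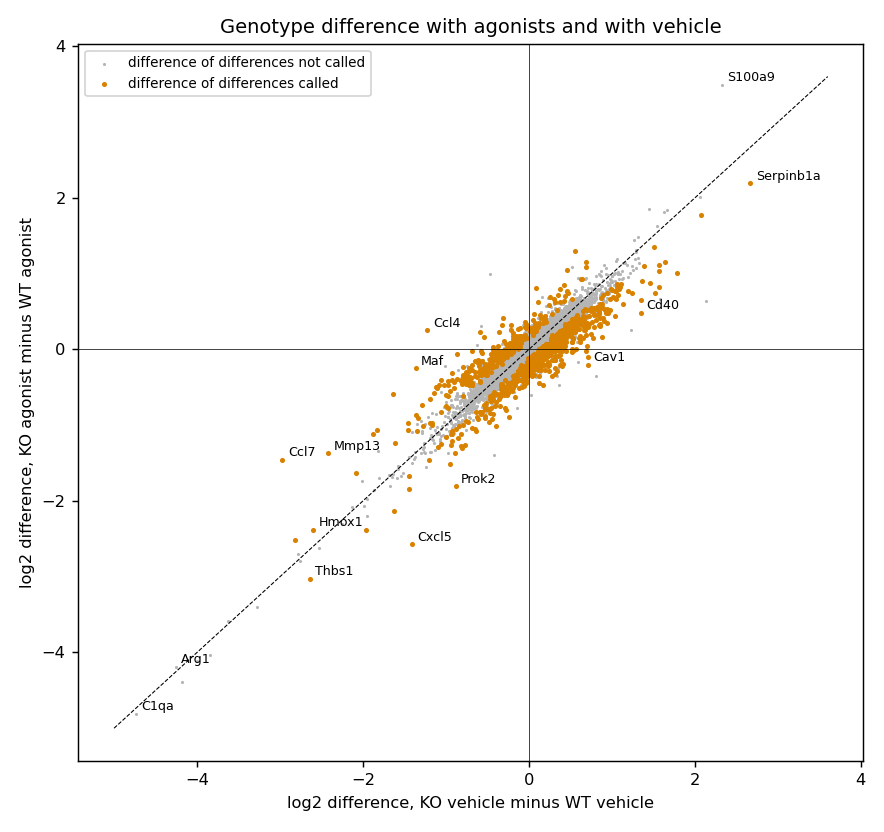
The log2 difference, KO minus WT, of each tested gene with agonists (vertical) against that with vehicle (horizontal), with the line of equality dashed and genes called for the difference of the differences in orange. C1qa and Arg1 lie near the line, while Ccl7 and Ccl4 lie above it and Cxcl5 below it.

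Chemokines were among the genes whose difference depended most on the agonists. Ccl7 was lower in KO by less with agonists (-1.46 ± 0.04) than with vehicle, where it had 8.03 and 8.6 FPKM in KO, against 74 and 70 FPKM in WT (difference of differences 1.51 ± 0.06, limma adjusted p = 8.11e-07). Ccl4 did not pass with agonists, at 252 and 234 FPKM in KO, against 208 and 199.8 FPKM in WT, and was lower in KO with vehicle, at 25.3 and 23.9 FPKM in KO, against 52.1 and 66.3 FPKM in WT (1.47 ± 0.16). Maf, a transcription factor of macrophages, was at 5.31 and 6.21 FPKM in KO, against 7.03 and 7.03 FPKM in WT, and with vehicle at 2.68 and 2.42 FPKM in KO, against 8.03 and 8.24 FPKM in WT (1.11 ± 0.09), and Mmp13 followed (1.05 ± 0.05). In the other direction Cxcl5 was at 5.04 and 5.15 FPKM in KO, against 15.3 and 15 FPKM in WT with vehicle, so its loss in KO was larger with agonists (-1.17 ± 0.07). Prok2, a chemokine-like protein, had 1.02 and 0.794 FPKM in KO, against 6.26 and 5.15 FPKM in WT with agonists (difference of differences -0.93 ± 0.15). Cav1, the coat protein of caveolae, was lower in KO with agonists, at 24.2 and 24.4 FPKM in KO, against 27.7 and 28.7 FPKM in WT (-0.21 ± 0.03), and higher with vehicle, at 9.42 and 9.44 FPKM in KO, against 5.36 and 5.4 FPKM in WT (0.71 ± 0.03), so its direction turned (-0.92 ± 0.04, adjusted p = 3.01e-06). Cd40 was higher in KO in both treatments, with 78.4 and 79.7 FPKM in KO, against 29.3 and 31.6 FPKM in WT with vehicle, and by less with agonists (-0.86 ± 0.06). NF-kB genes behaved likewise: 17 of 17 were higher with vehicle (32.2% of all genes were), against the 13 with agonists, and 13 were called with a negative difference of differences.

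**Figure D5:**
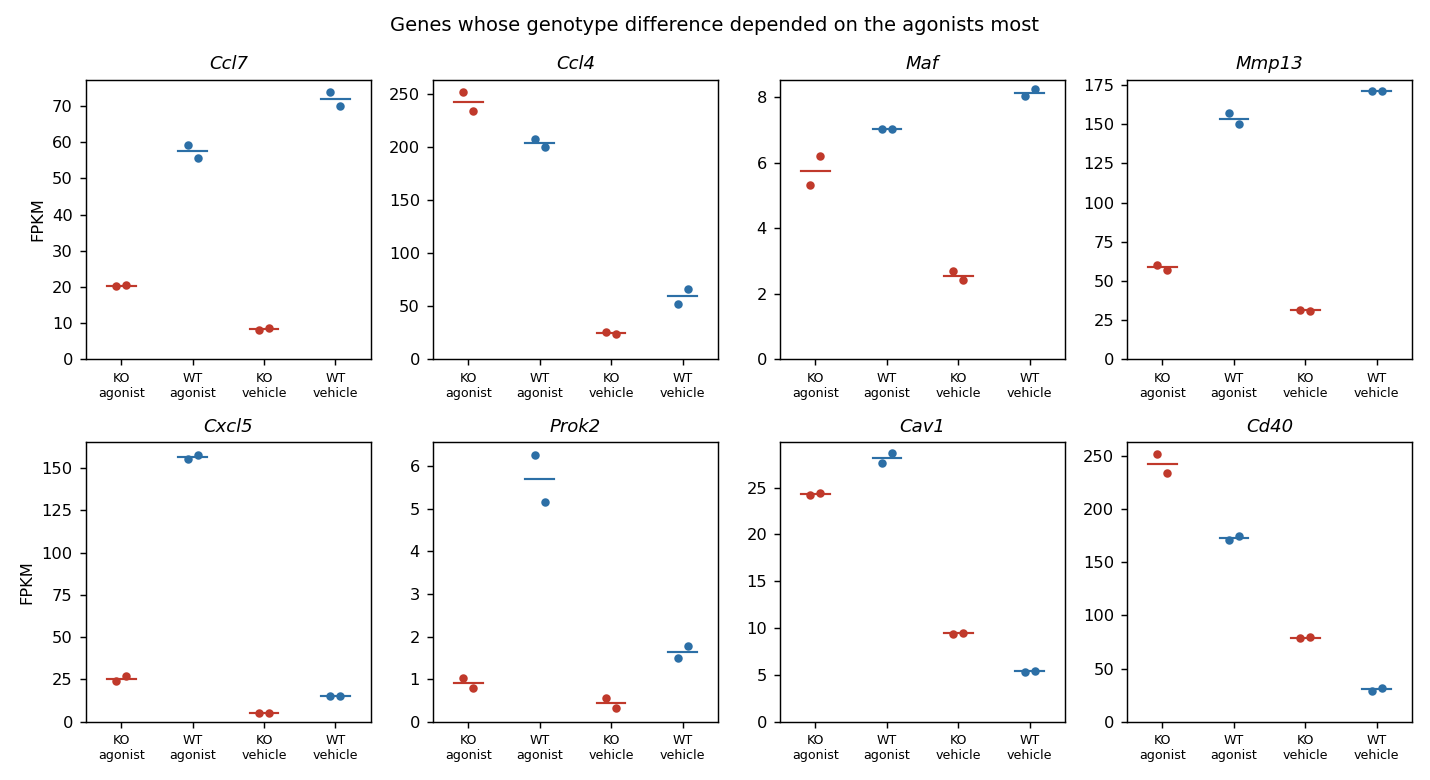
FPKM of 8 genes in each library of the KO agonist, WT agonist, KO vehicle and WT vehicle groups, with a bar at each group's mean; the upper row holds positive and the lower row negative differences of differences. The KO points of Ccl4 are above the WT points with agonists and below them with vehicle, and those of Cav1 are placed the other way round.

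Because the altered allele sits in Esr1 on chromosome 10, the genes around it were examined by the distance between gene midpoints (mm10). Within 5 Mb of Esr1 16 of 21 tested genes (76.2%) were called, 7 higher and 9 lower, and between 5 and 10 Mb 52.9% of 17 were. Between 10 and 20 Mb the share was 66.7% of 27 genes, Perp among them, and between 20 and 40 Mb 57.9% of 57. Farther than 40 Mb away the share was 59.4% of 397, and on all of chromosome 10 it was 60.2%. Plekhg1, a guanine nucleotide exchange factor whose midpoint lies 0.955 Mb from that of Esr1, was at 4.91 and 4.99 FPKM in KO, against 14.2 and 14.3 FPKM in WT (-1.36 ± 0.04). Sash1, a scaffold protein, was at 6.03 and 6.39 FPKM in KO, against 22.3 and 22.3 FPKM in WT (-1.69 ± 0.04). These were the 2 genes over 2-fold within 5 Mb, and both pairs were well apart. Flanking DNA of the strain in which the allele was made and the allele itself cannot be told apart here. Of 13 estrogen receptor and estrogen-linked genes tested 4 were higher and 8 lower (median -0.21), beside 27.6% higher and 28.5% lower over all genes. Among the lower ones were Igf1, a growth factor, at 20.7 and 22.4 FPKM in KO, against 77.5 and 77.1 FPKM in WT (-1.8 ± 0.04), and Myc (-0.46 ± 0.04). The progesterone receptor Pgr is listed at 0 in all 4 libraries, and Esr2 was below 0.2 FPKM.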

How the data were processed

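The authors' deposited table gives FPKM per gene for 16 libraries, of which the 8 from unoperated mice were fitted. Per the labels' protocols, libraries were made with TruSeq chemistry and sequenced in paired ends. The labels speak of triplicates, while 2 libraries a group were analysed. They also call 1 of the mate files of KO agonist replicate 2 and the raw files of WT agonist replicate 1 corrupted; whether this touched the FPKM could not be checked. Per the submitters' processing notes, cutadapt, FastQC, STAR, HTSeq and DESeq2 were used with mm10; their versions and the program that made the FPKM are not given in the sources used here. Depth was estimated from the steps of low FPKM values. Values were taken as log2(FPKM + 1) and fitted with limma 3.58.1 (R 4.3.3; trend, robust; 1 coefficient per group), with p-values adjusted by Benjamini and Hochberg's method over 10954 genes and a threshold of 0.05. Genes tested had 1 FPKM in at least 2 of the 8 libraries, and 1234 small RNA rows were left out. The 27 rows whose symbols had become dates stayed in wherever they passed that level, and were not named. A listed 0 was taken as missing where at least 12 of the 16 libraries were above 0 and all of those had 5 FPKM or more. This held for 5 values (Actr3, Ccl22, Hnrnpd and Jak2). The fit was tested on simulated data. Alternatives changed the added FPKM, minimum level, libraries fitted, scaling and limma settings. Genes were named by a rule: the 14 largest called changes each way with groups apart and 5 FPKM or more in the higher group, up to 4 leading members of each list, Esr1, its neighbours and sex-linked genes, the 4 leading differences of differences each way, the 10 most expressed genes and 9 factors and receptors. Other list members and the promoters shown were picked after their values were seen. The members and lists were chosen with earlier results of these data known. Some list members are not reported here.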

Additional observations from a re-analysis of the deposited data

Results flagged for a closer look

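The genotype difference of 873 genes was called as unequal between agonist and vehicle treatment by the difference of the differences in limma (Benjamini-Hochberg adjusted). Those named for the size of their change with agonists or of this difference are given with that value, KO minus WT with agonists less KO minus WT with vehicle. Positive values were found for Ccl7 (1.51 ± 0.06), Ccl4 (1.47 ± 0.16), Maf (1.11 ± 0.09), Mmp13 (1.05 ± 0.05) and Car4, a carbonic anhydrase (0.30 ± 0.06). Negative values were found for Cxcl5 (-1.17 ± 0.07), Prok2 (-0.93 ± 0.15), Cav1 (-0.92 ± 0.04), Cd40 (-0.86 ± 0.06), Thbs1 (-0.39 ± 0.06) and Ly6a, a surface antigen (-0.43 ± 0.03). Serpinb6b (-0.49 ± 0.04), Serpinb1a (-0.48 ± 0.05), Serpinb9b (-0.31 ± 0.05) and S100a4 (-0.15 ± 0.03), all higher in KO with agonists, also had negative values. The genotype label of the KO vehicle libraries names another allele than their source label. By the labels alone, the allele and the treatment cannot be told apart in these values.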

How the results depend on the processing

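The number of genes called between KO and WT with agonists ran between 5124 and 6219 over the alternatives. Over 2-fold the count was 337 with 0.1 FPKM added before the logarithm and 75 with 5 FPKM added, and 182 genes passed the 1.5-fold treat test with 5 FPKM added. The difference of the differences was called in 527 genes without a minimum level and in 500 to 749 with 1 library left out: 553 without WT agonist replicate 2, 500 and 569 without KO vehicle replicate 1 and 2, and 505 and 501 without WT vehicle replicate 1 and 2. Quantile scaling put 3315 of 6124 called genes higher in KO (54.1%, against 49.2%). Deviations of same-numbered agonist libraries correlated at -0.08 across 10952 genes, so no strong shift shared by replicate number was seen. Whether same-numbered libraries came from 1 mouse or culture cannot be told from that value. With the replicate number as a block, 6015 genes were called and 720 for the difference of the differences. Of 4106 repeats for 207 named genes, 4015 kept direction and call, 52 lost the call, 28 gained it and 11 turned. With quantile scaling Csf2rb (-0.021) and Hdc (-0.0096) turned. With 1 library left out Hdc ran between -0.085 and 0.10, Ccl3 between -0.12 and 0.0068, Lck between -0.13 and 0.077, 1700052N19Rik between -0.021 and 0.096, Mthfd1l between -0.15 and 0.032, Mtrf1l between -0.028 and 0.0048 and Shprh between -0.048 and 0.055. Of these only Csf2rb had been called, and the cause was not tested. With 2 libraries a group, the spread of a gene rests on 4 residual degrees of freedom and on what limma borrows from the other genes.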

Other observations

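Genes over 2-fold that neighbour each other, grouped after their values were seen, included Treml4 and Trem2 on chromosome 17 (48149126 to 48354147), lower in KO, and Mgl2 and Clec10a on chromosome 11 (70130329 to 70170834), also lower. Klk1b9, Klk1b11 and Egfbp2 on chromosome 7 (43976061 to 44016968) were lower, and reads of these close paralogs are uncertain. Stfa2l1 and BC100530 on chromosome 16 (36156811 to 36367748) were higher, with the same limit.

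Of 11 prostaglandin and leukotriene enzymes 6 were lower and 3 higher in KO (median -0.34), and of 11 STAT and SOCS genes 7 were higher and 2 lower (median 0.11), beside 27.6% higher and 28.5% lower over all genes. Of 3 plasmacytoid dendritic cell markers tested 1 was higher and 2 lower. Of 7 eosinophil markers listed only 2 reached the level for testing, and both were higher (median 0.35). The eosinophil list was low, its FPKM summing to 5.65 and 6.45 in KO, against 4.37 and 4.36 in WT.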
